A study of Mus musculus with 28 samples.

Results

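The comparison described here sets whole brains in remyelination after removal of TNFR1 from microglia against whole brains that never met cuprizone. Its members are the 7 libraries titled with the genotype mgTNFR1KO and the stage remyelination and the 7 titled TNFR1ff and naive, 14 of the 28 libraries of the series. The series holds 4 groups of 7 mouse whole-brain libraries, which follow cuprizone demyelination, remyelination and the effect of the microglial deletion on remyelination. Polyadenylated RNA was read from its 3′ end, so a gene is measured by tags near the end of its transcripts. The naive group (CPZ0) carried the floxed TNFR1 gene, TNFR1ff, backcrossed onto C57BL/6. The knockout remyelination group (CPZ6+1, here the knockout group) carried Cx3cr1-CreER.Tnfr1ff and lost TNFR1 in microglia after tamoxifen, given as a therapeutic induction. A further group, remyelination in TNFR1ff mice (CPZ6+1, here control remyelination), is used only to test whether a value differs between knockout and control brains at the same stage. The labels give no unit for the numbers after CPZ. They give no age, and do not say whether the 7 samples of a group are 7 animals, so p-values measure the spread between these samples.

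Cuprizone is a copper chelator that kills oligodendrocytes, the cells that make myelin, and when it is withdrawn new oligodendrocytes rebuild the sheaths. Microglia, the resident macrophages of the brain, clear the debris, take up its cholesterol, and switch on a set of lysosomal, lipid and complement genes known as the disease-associated program, while astrocytes turn reactive. TNFR1, encoded by Tnfrsf1a, is the receptor through which the cytokine TNF drives NF-kB signalling, inflammation and cell death. The Cre of this line is driven from the locus of Cx3cr1, a chemokine receptor of microglia and of other brain macrophages, and such a locus usually loses a copy of that gene. Knockout and naive brains differ at once in cuprizone history, in Cre and in the deletion, and whether naive mice received tamoxifen is not given in the sources used here. Those causes cannot be told apart in this comparison. In whole tissue a change in the number of cells of a type and a change in RNA per cell cannot be told apart either.

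The 14 libraries held the defining transcripts of brain tissue. Across them Snap25 of neurons ranged from 708 to 1440 CPM (counts scaled to library size with TMM factors), Mobp of oligodendrocytes from 275 to 417, Slc1a2 of astrocytes from 1870 to 2480 and Csf1r of microglia from 45.6 to 93.6 CPM. Library totals were 1531710 to 2986501 counts in the knockout group and 1522919 to 2150495 in the naive group. Knockout library 1 and naive library 1 stood apart in composition. A gene without a symbol, ENSMUSG00000119584.1, was the most abundant and took 1.33% of counts in knockout library 1 and 25.5% in naive library 1, against medians of 10.4 and 10.1% in their groups. Each count of called genes is given below with and without both of them.

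Of 12423 genes tested, 403 (3.24%) passed an adjusted p of 0.05 between knockout and naive brains, 191 higher (1.54%) and 212 lower (1.71%). An unadjusted p under 0.05 was found in 2344 of the 12423, the background for list counts at that threshold. Transcripts of activated microglia, complement, lysosomes, reactive astrocytes and red blood cells were among the higher genes, and Hmgcs1, Sc5d and Idi1 of cholesterol synthesis and Anln and Ermn of myelin among the lower ones. The change was more than 2-fold in 45 of the higher and 28 of the lower genes, and the median log2 fold change of the calls was 0.57 upward and −0.59 downward. The ranges of the 7 knockout and 7 naive libraries did not overlap in 130 genes (1.05%), 70 of them higher (0.563%) and 60 lower (0.483%). Without knockout library 1 and naive library 1, 280 genes were higher and 364 lower, among them 159 of the 191 and 178 of the 212. The counts moved most with single libraries of the knockout group. Without knockout library 7 they were 87 higher and 59 lower, without knockout library 6 they were 120 and 99, and without knockout library 1 they were 332 and 404. Without naive library 2 they were 117 and 88 and without naive library 5 they were 117 and 79, while the lower count alone moved to 104, 115 and 141 without knockout library 3, naive library 3 and naive library 4.

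**Figure D1:**
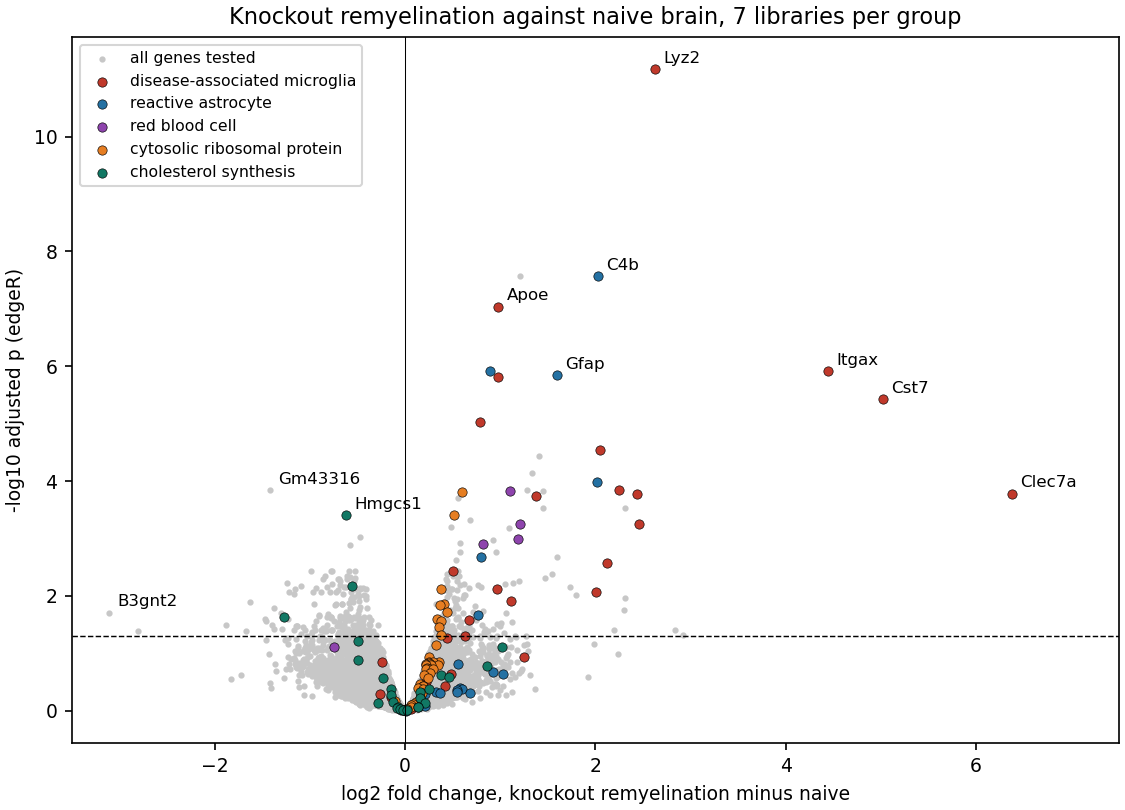
Log2 fold change of each of 12423 genes, knockout remyelination minus naive (x axis), against −log10 of the adjusted p of the edgeR quasi-likelihood test (y axis), with 7 libraries per group and the dashed line at an adjusted p of 0.05. Members of 5 gene lists are coloured, and the disease-associated microglia and reactive astrocyte genes above the line all lie to the right of 0. Clec7a, Cst7 and Itgax have 0, 1 and 3 counts in the naive group, so their positions on the x axis depend on the fit.

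The higher and lower genes differed in base composition and size. In the last 500 bases of the annotated transcript, the stretch nearest to the tags, median GC content was 49.2% in higher genes, 35.0% in lower genes and 43.0% in all genes tested. With genes divided into 4 equal bins by GC content, the lowest bin held 8 higher and 141 lower calls, with a median log2 fold change of −0.18, and the highest bin held 95 and 5, with a median of 0.17. Higher genes spanned a median of 8.72 kb of genome and lower genes 59.9 kb, and 20 of the 212 lower genes were TEC models (unconfirmed transcripts), against none of the higher. The gap between the highest and lowest GC bins, set against the naive mean, was 0.20 to 0.52 in the 7 knockout libraries and −0.20 to 0.18 in the 7 naive libraries on the log2 scale, so the groups did not overlap. In control remyelination it was −0.209 in library 1 and 0.206 to 0.465 in the other libraries, which also lay above every naive library. The median was 0.247 in control remyelination and 0.255 in the knockout group. An offset per library for GC content and gene span, chosen after seeing the data, left 116 higher and 58 lower genes, of which 88 and 54 were among the original calls. The lists below are given with their counts under that offset, since GC content moved with the group. Mitochondrially encoded counts were 8.39 to 14.4% of knockout libraries (median 10.2%) and 9.66 to 14.5% of naive libraries (median 12.8%), and with that share as a covariate 115 genes were higher and 73 lower.

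**Figure D2:**
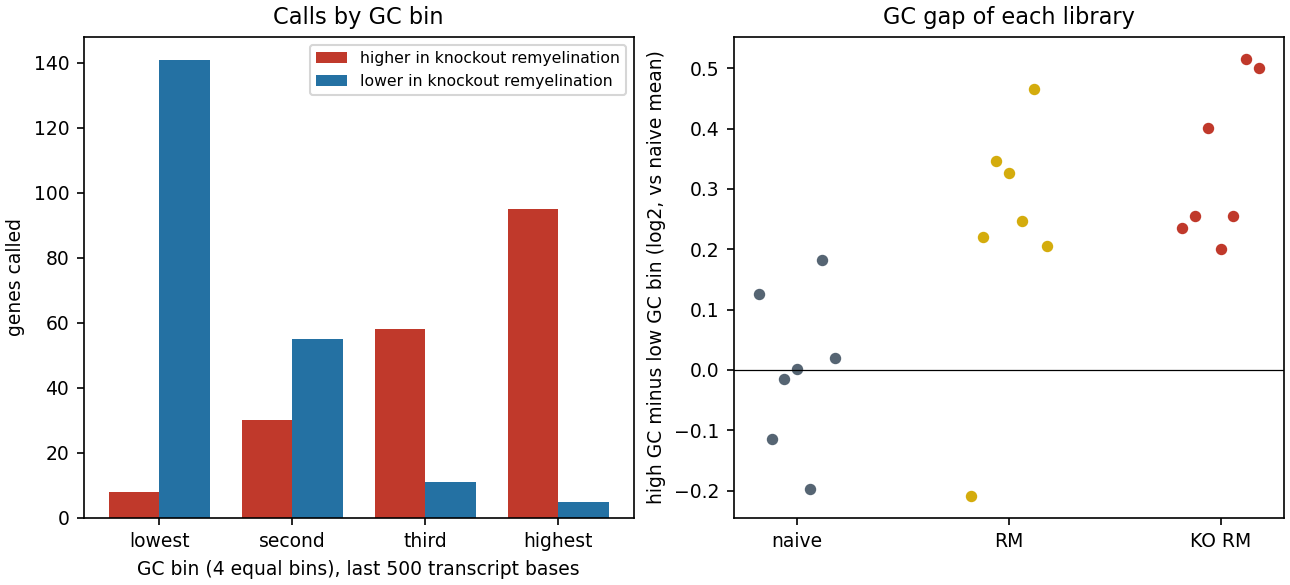
Left, number of genes called higher or lower in knockout remyelination (y axis) in each of 4 bins of GC content of the last 500 transcript bases (x axis). Right, the gap in mean log2 level between the highest and lowest GC bins in each library, set against the naive mean, for naive, control remyelination (RM) and knockout remyelination (KO RM) libraries, with 7 points per group. All 7 knockout points lie above the naive points, and so do the control remyelination points apart from that of library 1.

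The targeted gene, Tnfrsf1a (ENSMUSG00000030341.18), was measured at 9.54, 13.8 and 18 CPM in the lowest, median and highest naive library and at 16.5, 21.8 and 30.4 CPM in the knockout libraries. The ranges overlapped, and the knockout group was higher with a log2 fold change of 0.72 (SE 0.178, adjusted p = 0.0187). The call ended without knockout library 7 (log2 fold change 0.62, adjusted p = 0.0786) or naive library 5 (0.66, adjusted p = 0.0562), with the mitochondrial covariate (0.61, adjusted p = 0.0733) and with the GC offset (0.55, adjusted p = 0.0826). Many cells besides microglia express this gene and tags from the 3′ end need not come from the floxed stretch, so the level is no check of the deletion. Tnf itself had 0 counts in both groups, and Tnfrsf1b, the second TNF receptor, had 8 naive and 28 knockout counts and was not tested.

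Tnfrsf1a was the single call of 22 tested genes of the TNF receptor complex and NF-kB signalling, a share near the 3.24% over all genes, and the list's median log2 fold change was 0.05 beside 0.00 over all genes. The list had no call by edgeR with the GC offset, and without knockout library 1 and naive library 1 Cyld, which encodes a deubiquitinase that restrains NF-kB, was called too (−0.42, adjusted p = 0.0237). Of 11 measured targets of TNF and NF-kB none was called by edgeR or by DESeq2, without knockout library 1 and naive library 1 or with the GC offset, and 2 had an unadjusted p under 0.05. Lcn2, which encodes lipocalin-2, failed the filter on low counts with all libraries and was called higher without knockout library 4 or 7 (2.99 in both, adjusted p = 0.00992 and 0.0166). Cyld and Lcn2 were named after their values were seen. The pair with the smallest p were Ier3, at 4.44 ± 2.48 CPM in naive and 8.29 ± 3.09 in knockout libraries (mean ± SD, n = 7 each, log2 fold change 0.84, adjusted p = 0.165), and Nfkbia, the NF-kB inhibitor, at 130 ± 18.5 and 111 ± 11.6 CPM (−0.23, adjusted p = 0.255).

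Genes of disease-associated microglia were higher in the knockout group. Of 35 listed genes 31 passed the filter on low counts, and 19 of these were higher and none lower, with a median log2 fold change of 0.97. Clec7a lies above that median both as fitted and at its bound given below, so setting it to the bound could not move the median. The ranges of 14 of the 31 did not overlap. Genes such as Itgax and Clec7a passed the filter through the cuprizone groups alone, so these counts are a description. Without knockout library 1 and naive library 1, 18 were higher, and leaving out single libraries gave 17 to 20. With the GC offset 18 were higher.

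Lyz2 (ENSMUSG00000069516.9), the lysozyme of macrophages and microglia, had the smallest p of all genes. Its lowest, median and highest values were 4.40, 9.70 and 20.1 CPM in naive libraries and 49.5, 80.7 and 89.7 CPM in knockout libraries. Every knockout library lay above every naive library, and the rise was 2.63 on the log2 scale (SE 0.203, adjusted p = 6.63e-12). Apoe (ENSMUSG00000002985.17), the main lipid carrier of the brain, made by astrocytes and by activated microglia, ranged from 1041 to 1395 CPM in naive libraries (median 1194) and from 1945 to 2975 CPM in knockout libraries (median 2237). The groups were again apart, with a rise of 0.98 (SE 0.108, adjusted p = 9.16e-08). Ctsd, a lysosomal protease, rose by 0.98 (SE 0.124, adjusted p = 1.51e-06), from a naive range of 97.5 to 135 CPM to a knockout range of 180 to 307 CPM.

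Several members of this program were close to absent from naive brain. Clec7a (ENSMUSG00000079293.12), which encodes the receptor Dectin-1, had 0 counts in 7 naive libraries and 71 in the knockout group, so with 3 counts taken as the naive floor of the whole group it was at least 21.5-fold higher. Knockout library 1 alone held 18.7 CPM, while the median knockout library held 3.49 CPM and the lowest 0. Itgax (ENSMUSG00000030789.10), which encodes CD11c, had 3 naive and 94 knockout counts, or 28.5 times as much (95% counting interval 9.46 to 141), and was between 3.65 and 10.5 CPM in every knockout library. Cst7, a cystatin, named after its values were seen, had 1 and 63 counts, or 57.3 times as much (interval 9.92 to 2300).

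Other large rises were in genes of phagocytes. Lgals3, which encodes galectin-3, rose by 2.46 (SE 0.434, adjusted p = 0.000552), the chemokine Ccl6 by 2.44 (SE 0.398), Cd52, a surface glycoprotein of leukocytes, by 2.25 (SE 0.360), Gpnmb, a glycoprotein of lipid-laden phagocytes, by 2.12 (SE 0.420), and Cd68, a lysosomal marker of phagocytes, by 2.04 (SE 0.297). Knockout and naive ranges did not overlap in Ccl6, Cd52, Gpnmb and Cd68 and overlapped in Lgals3. Bcl2a1b, of a family of near-identical survival genes whose reads may be shared, and AU020206 rose by 2.32 and 2.31. Tyrobp and Trem2, the adaptor and receptor that switch this program on, rose by 1.38 (SE 0.227, adjusted p = 0.000185) and 1.12 (SE 0.265, adjusted p = 0.0123), while Spp1, which encodes osteopontin, was 14.4 ± 5.43 CPM in naive and 14.9 ± 5.66 CPM in knockout libraries (adjusted p = 0.943). Those 3 genes were chosen after their values were seen. Gm45894 and Gm43118 were also among the 12 largest rises, at 2.92 and 2.84 with adjusted p = 0.0483 and 0.0389. Naive library 5 held 4.70 CPM of each, the other naive libraries 0 CPM of Gm45894 and 0 or, in naive library 3, 1.55 CPM of Gm43118. Without naive library 5 the fitted log2 fold changes were 6.65 and 4.48, and over the 14 fits that left out a library they started at 2.57 and 2.32. Gm45894 kept its call in 3 and Gm43118 in 4 of those fits, with adjusted p up to 0.145 and 0.0877.

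**Figure D3:**
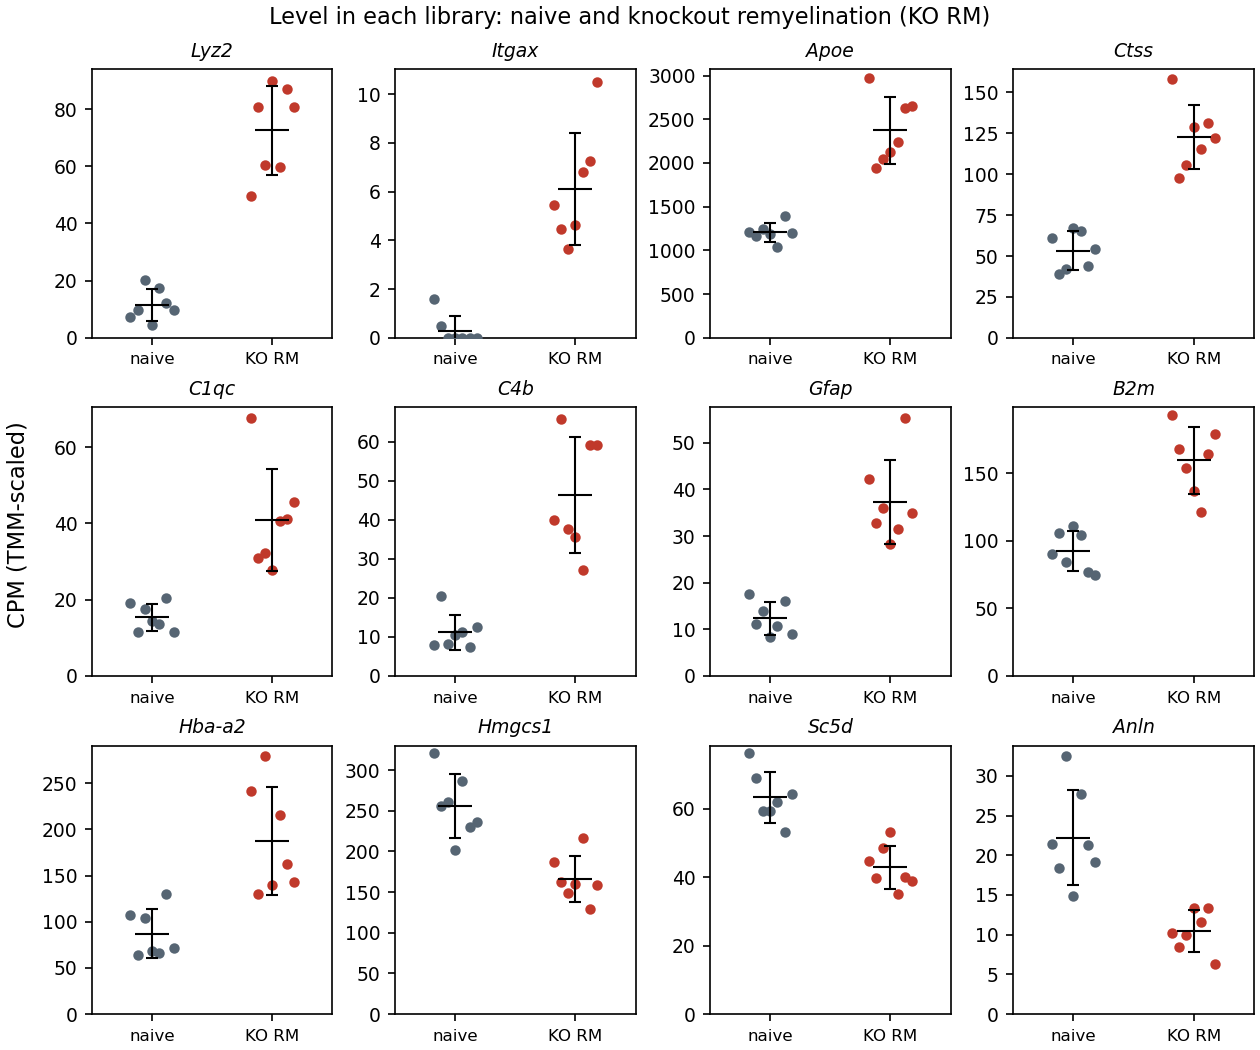
CPM (y axis, from 0) of 12 genes in each naive and knockout remyelination (KO RM) library, with 7 points per group and the mean ± SD as bars. Lyz2, Itgax, Apoe, Ctss, C1qc, C4b, Gfap and B2m have all knockout points above all naive points, and Sc5d and Anln have them all below.

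Homeostatic microglia genes were called in both directions. Of 19 tested, 3 were higher and 1 lower, and the median was 0.19. There were 3 higher and none lower without knockout library 1 and naive library 1, 2 and none with the GC offset, and 3 and 2 with DESeq2. Fcrls, an Fc-receptor-like gene of microglia, rose by 1.28 (SE 0.204, adjusted p = 0.000144), from 6.07, 8.25 and 10.2 CPM (lowest, median and highest naive library) to 12, 17.2 and 31.4 CPM. Every knockout library lay above every naive library. Csf1r, the receptor on which microglia depend for survival, rose by 0.53 (SE 0.129, adjusted p = 0.0162), and its call ended without knockout library 7, with the mitochondrial covariate and with the GC offset (highest adjusted p = 0.0842). P2ry12, the purinergic receptor of resting microglia, fell by 0.71 (SE 0.205, adjusted p = 0.0457), at 14.1, 17.4 and 32.6 CPM in naive and 7.25, 12.8 and 14.9 CPM in knockout libraries. That call held in 4 of 14 fits that left out a library, ended without knockout library 1 and naive library 1 together, and reached an adjusted p of 0.275 with the GC offset (log2 fold change −0.47).

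Complement and Fc receptor genes were higher in 7 of 16 tested, with a median of 0.86 and none lower. The count was 7 without knockout library 1 and naive library 1 and 5 with the GC offset. C4b (ENSMUSG00000073418.5), a complement component of astrocytes and oligodendrocytes with a near-identical copy in the mouse genome, was 7.4, 10.5 and 20.4 CPM in naive and 27.1, 39.9 and 65.8 CPM in knockout libraries. The groups did not overlap, and the rise was 2.03 (SE 0.212, adjusted p = 2.68e-08). C1qc and C1qb, chains of the C1q molecule that microglia make, rose by 1.41 (SE 0.208, adjusted p = 3.69e-05) and 1.05 (SE 0.228, adjusted p = 0.0063), and Fcer1g, the signalling chain of Fc receptors, by 1.20 (SE 0.256, adjusted p = 0.00548).

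Lysosomal genes were higher in 11 of 36 tested, with a median of 0.39 and 34 members above 0. Leaving out single libraries gave 8 to 13, leaving out knockout library 1 and naive library 1 gave 12, and the GC offset gave 8. Ctss (ENSMUSG00000038642.11), a cathepsin of microglia, rose by 1.21 (SE 0.127, adjusted p = 2.68e-08), from 38.8, 54.6 and 67.2 CPM to 97.7, 122 and 158 CPM, with no overlap. Ctsh, another cathepsin, rose by 1.33 (SE 0.203, adjusted p = 7.22e-05), and its lowest knockout library (17.3 CPM) was above its highest naive library (10.5 CPM).

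Lipid handling genes for efflux and storage were higher in 4 of 16 tested, with a median of 0.40. Beside Apoe these were Apoc1, a lipoprotein component, at 2.30 (SE 0.565, adjusted p = 0.0175), Lpl, the lipoprotein lipase, at 0.67 (SE 0.174, adjusted p = 0.0261), and Npc2, which moves cholesterol out of lysosomes, at 0.61 (SE 0.151, adjusted p = 0.02). These 4 were called higher without knockout library 1 and naive library 1 too, and Fabp7, a fatty acid binding protein, was then lower (−0.82, adjusted p = 0.0261). The GC offset also gave 4 higher, with Abca1, a cholesterol exporter (0.65, adjusted p = 0.0182), in place of Npc2 (adjusted p = 0.079), and both Fabp7 and Abca1 were named after their values were seen. The higher count was 2 without knockout library 3 and 1, Apoe, without knockout library 7. Lpl kept its call in 7 of 14 fits that left out a library, and the calls of Lpl and Apoc1 ended with the mitochondrial covariate (highest adjusted p = 0.0672 and 0.0864). Npc2 was 166 CPM in knockout library 1, against a median of 85.5 CPM in its group.

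Cholesterol synthesis genes were lower in 3 of 25 tested and higher in none. Of the 25, 11 had a log2 fold change above 0, and the list's median of −0.05 was close to that of all genes. Hmgcs1 (ENSMUSG00000093930.3), the enzyme that commits acetyl units to the pathway, was 202, 256 and 320 CPM in naive and 129, 160 and 216 CPM in knockout libraries. The ranges overlapped slightly, and the level fell by 0.62 (SE 0.107, adjusted p = 0.00039). Sc5d, a late desaturase of the pathway, fell by 0.56 (SE 0.123, adjusted p = 0.00682) without overlap, from 53.2, 62.0 and 76.3 CPM to 35.1, 40.2 and 53.1 CPM. Idi1, the isopentenyl isomerase, fell by 1.27 (SE 0.325, adjusted p = 0.023), and its call ended without knockout library 7, naive library 4 or naive library 5 and with the mitochondrial covariate (highest adjusted p = 0.082). The lower count was 3 without knockout library 1 and naive library 1 and 3 with the GC offset. Leaving out single libraries gave 2 to 4 lower, and 1 member was called higher without knockout library 4 or naive library 4.

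Promoters are shown for the called members of 3 lists that hold a motif known for that list, so that its letters can be read beside their values. They are RefSeq promoters of build GRCm38.p6, 250 bases before to 50 after the start, written on the strand of the gene, with motif matches on either strand in capitals. Of 32851 promoters of this length, 0.97% hold the CLEAR-type E-box TCACGTGA, 1.24% the sterol regulatory core TCACNCCAC and 3.44% the interferon-stimulated response element core, which reads GAAA, any 2 bases, GAAA. Counted per gene, over 27025 genes with such a promoter, the shares are 1.12, 1.44 and 3.99%. Among the called genes with such a promoter, 1 of 7 lysosomal, 1 of 3 cholesterol synthesis and 2 of 4 interferon genes hold theirs. Among all measured members of those lists with such a promoter, called or not, it is 3 of 29, 1 of 18 and 6 of 12. A match is a description of the letters and not a measured site.
Ctsd, chr7:142387778-142388077, minus strand: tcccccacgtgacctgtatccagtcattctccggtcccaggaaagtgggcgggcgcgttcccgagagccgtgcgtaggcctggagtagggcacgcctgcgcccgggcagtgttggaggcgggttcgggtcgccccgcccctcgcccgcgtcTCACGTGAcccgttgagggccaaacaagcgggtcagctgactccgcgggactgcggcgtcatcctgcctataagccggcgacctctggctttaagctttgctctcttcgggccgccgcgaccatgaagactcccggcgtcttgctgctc
Hmgcs1, chr13:119690101-119690400, plus strand: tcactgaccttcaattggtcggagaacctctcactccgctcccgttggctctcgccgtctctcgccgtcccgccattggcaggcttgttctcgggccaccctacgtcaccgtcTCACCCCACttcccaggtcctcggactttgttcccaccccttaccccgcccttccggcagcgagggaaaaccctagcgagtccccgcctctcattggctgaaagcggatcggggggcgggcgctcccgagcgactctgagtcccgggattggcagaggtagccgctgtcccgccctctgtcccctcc
Ifitm3, chr7:141010695-141010994, minus strand: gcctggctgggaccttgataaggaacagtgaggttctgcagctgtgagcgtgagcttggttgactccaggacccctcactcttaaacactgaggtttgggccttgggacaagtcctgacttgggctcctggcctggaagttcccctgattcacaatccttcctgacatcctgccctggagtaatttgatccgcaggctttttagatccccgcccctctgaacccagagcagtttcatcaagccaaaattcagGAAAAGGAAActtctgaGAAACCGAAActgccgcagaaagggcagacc
Ifit3, chr19:34583279-34583578, plus strand: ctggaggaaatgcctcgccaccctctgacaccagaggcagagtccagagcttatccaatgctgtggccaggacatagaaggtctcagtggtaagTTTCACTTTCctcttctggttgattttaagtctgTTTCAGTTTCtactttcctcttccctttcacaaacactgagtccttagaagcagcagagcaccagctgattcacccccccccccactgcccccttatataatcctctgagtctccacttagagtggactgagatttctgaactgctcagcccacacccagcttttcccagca

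Type I interferon response genes were higher in 4 of 15 tested, with a median of 0.36. Lgals3bp, a secreted glycoprotein, rose by 1.09 (SE 0.195, adjusted p = 0.000657) without overlap, from 4.40, 13.6 and 16.7 CPM to 19.3, 24.0 and 36.3 CPM, and Ifitm3, a membrane protein that blocks viral entry, rose by 0.93 (SE 0.172, adjusted p = 0.00105). Ifit3, an interferon-induced antiviral gene, rose by 1.06 (SE 0.267, adjusted p = 0.02), and its call ended without knockout library 7 or naive library 5 and with the GC offset (highest adjusted p = 0.0785). Irf9, a subunit of the interferon transcription complex, was higher by 1.04 (adjusted p = 0.0445), with 27.8 CPM in knockout library 1 against a median of 10.5, and its call ended without that library and in most other fits that left out a library. The list had 3 calls without knockout library 1 and naive library 1, 2 without knockout library 7 or naive library 5, and 2 with the GC offset.

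Antigen presentation genes were higher in 4 of 13 tested, with a median of 0.50. B2m (ENSMUSG00000060802.9), the light chain of class I molecules, was 74.8, 89.9 and 111 CPM in naive and 121, 164 and 193 CPM in knockout libraries. The groups did not overlap, and the rise was 0.78 (SE 0.108, adjusted p = 9.3e-06). H2-D1, a class I heavy chain whose reads may be shared with similar genes, rose by 0.80 (SE 0.155, adjusted p = 0.00214), also without overlap. H2-K1, another heavy chain, was higher by 0.70 (adjusted p = 0.0389) but kept its call in only 3 of 14 fits that left out a library, and Calr, the chaperone calreticulin, was higher by 0.46 (adjusted p = 0.00938) and lost its call with the GC offset (adjusted p = 0.1). The list had 3 calls without knockout library 1 and naive library 1 and 2 with the offset.

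Reactive astrocyte genes were higher in 6 of 21 tested, with a median of 0.57, and numbered 6 without knockout library 1 and naive library 1 and 5 with the GC offset. Gfap (ENSMUSG00000020932.15), the intermediate filament of reactive astrocytes, was 8.26, 11.2 and 17.5 CPM in naive and 28.3, 34.9 and 55.2 CPM in knockout libraries. The groups were fully apart, with a rise of 1.59 (SE 0.2, adjusted p = 1.42e-06). Vim, the filament vimentin, rose by 0.89 (SE 0.110, adjusted p = 1.23e-06) without overlap, and Serpina3n, a secreted protease inhibitor, by 2.01 (SE 0.314, adjusted p = 0.000105) with overlapping ranges. Of 25 genes of homeostatic astrocytes, 2 were higher, Ppp1r3c, a glycogen regulator, by 0.53 (adjusted p = 0.012) and Mlc1, a membrane protein of astrocyte endfeet, by 0.43 (adjusted p = 0.0324). The call of Ppp1r3c ended without knockout library 7 (adjusted p = 0.057), and that of Mlc1 held in 7 of 14 fits that left out a library. The list had 3 higher without knockout library 1 and naive library 1 and 2 with the GC offset, and in both Sparcl1, a secreted matrix protein of astrocytes named after its values were seen, was among them (0.43 and 0.48, adjusted p = 0.00204 and 0.0227).

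Most myelin genes were not called. Of 46 genes of myelin and mature oligodendrocytes 3 were lower and 2 higher, also without knockout library 1 and naive library 1, and the median was −0.07. The GC offset left 1 lower and 1 higher. Anln (ENSMUSG00000036777.9), which encodes anillin, a septin scaffold of the myelin sheath, was 14.9, 21.3 and 32.5 CPM in naive and 6.29, 10.3 and 13.4 CPM in knockout libraries. The groups did not overlap, and the level fell by 1.09 (SE 0.239, adjusted p = 0.00668). Ermn, which encodes the oligodendrocyte cytoskeletal protein ermin, fell by 0.75 (SE 0.197, adjusted p = 0.0273), a call that held in 8 of 14 fits that left out a library (highest adjusted p = 0.0853) and ended with the GC offset, with library totals and with the mitochondrial covariate (highest adjusted p = 0.151), and Gpr37, a receptor of oligodendrocytes named after its value was seen, fell by 0.51 (adjusted p = 0.0495). Apod, an apolipoprotein of oligodendrocytes, rose by 0.50 (SE 0.104, adjusted p = 0.00448) without overlap, from a naive range of 90.7 to 126 CPM to a knockout range of 133 to 189 CPM. Ptgds, a prostaglandin synthase that meningeal cells also make, was higher by 0.45 (adjusted p = 0.0104) and lost its call with the GC offset (adjusted p = 0.259).

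Mbp, a major structural transcript of myelin chosen for mention after its values were seen, was 3060 ± 319 CPM in naive and 3488 ± 531 CPM in knockout libraries (log2 fold change 0.19, adjusted p = 0.274). The lower count of the myelin list fell to 1 without any of knockout libraries 3, 6 and 7 or naive libraries 2, 3 and 5. None of 13 newly formed oligodendrocyte genes was called by edgeR with all libraries or without knockout library 1 and naive library 1, or by DESeq2, with 4 at an unadjusted p under 0.05 and a median of 0.20. With the GC offset Fyn, a kinase that acts in myelination, was called higher (0.46, adjusted p = 0.00588), and without knockout library 4 Rnd2, a small GTPase, was (0.54, adjusted p = 0.0334), both named after their values were seen. Of 19 oligodendrocyte precursor genes 1 was lower, beside 3.24% called over all genes. It was Pcdh15, a protocadherin of precursors, at −0.81 (adjusted p = 0.0206). Its call ended without knockout library 6 or 7 or naive library 2 or 5 and with the GC offset (highest adjusted p = 0.175). It did not end without knockout library 1 and naive library 1 (adjusted p = 0.018).

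**Figure D4:**
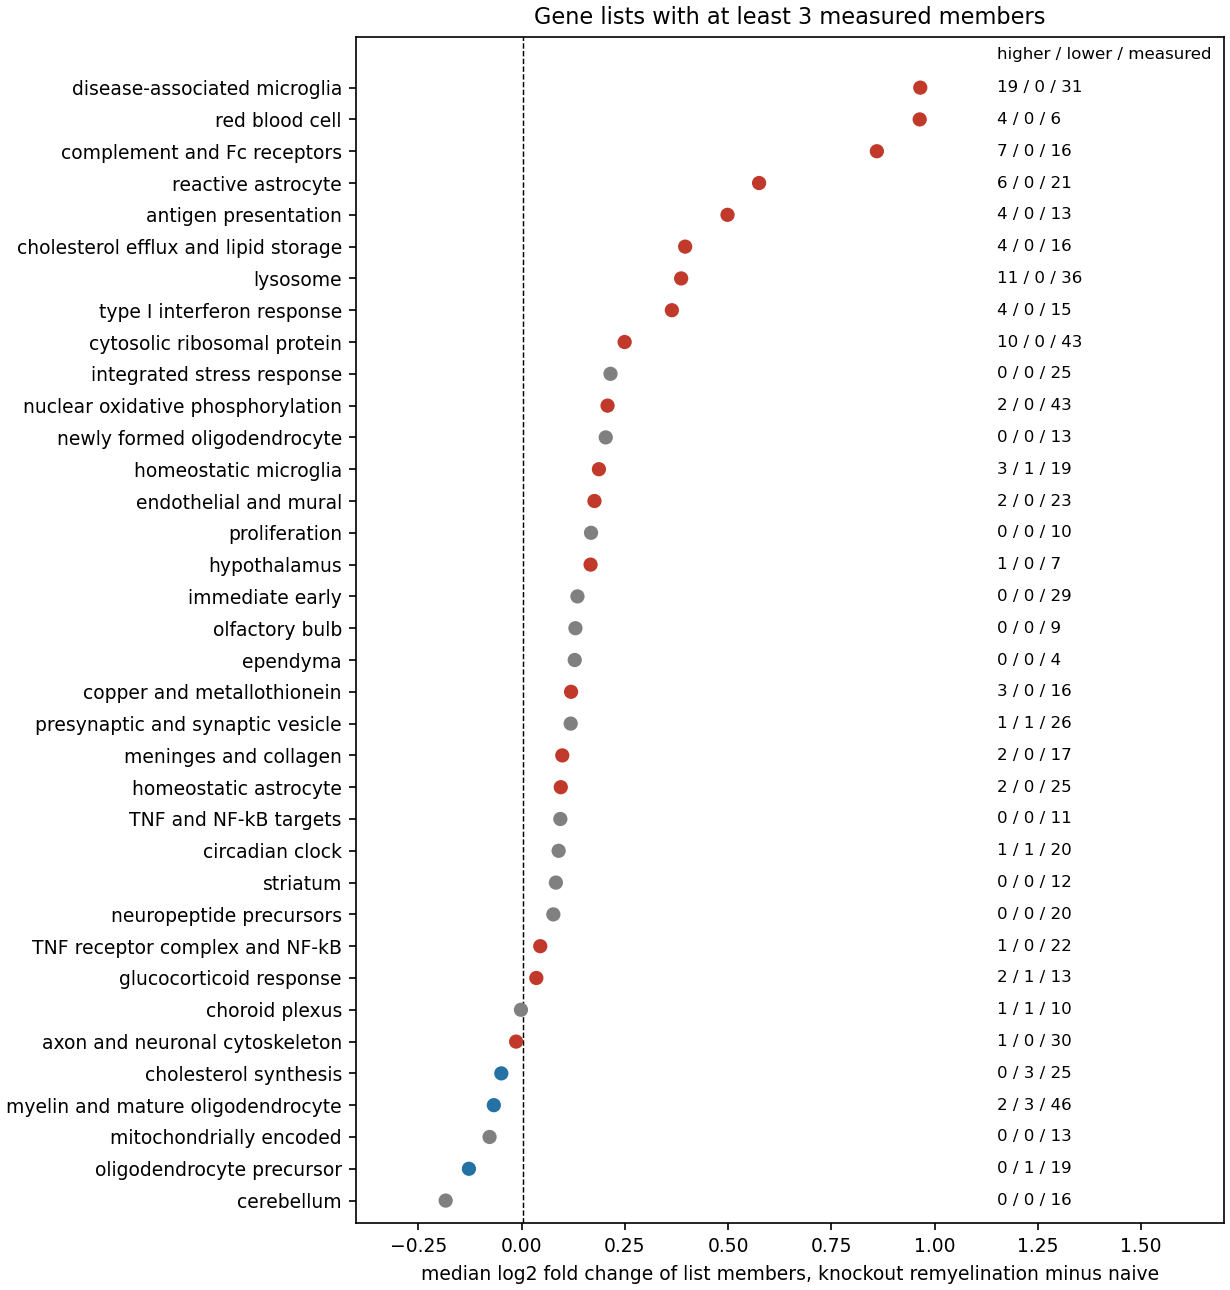
Median log2 fold change, knockout remyelination minus naive (x axis), of the measured members of each gene list with at least 3 of them, with the number called higher, called lower and measured at the right. Red marks lists with more higher than lower calls, blue the opposite and grey equal numbers, and the dashed line is the median of all genes tested. Disease-associated microglia, red blood cell and complement lists have the highest medians, at 0.97, 0.96 and 0.86.

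Of 6 measured red blood cell genes 5 had a log2 fold change above 0. None was called lower with all libraries, but 1 was without knockout library 3, naive library 3 or naive library 6. The 4 haemoglobin genes among 6 measured were higher, Hba-a2 by 1.10 (SE 0.178, adjusted p = 0.000148), Hbb-bt by 1.21 (SE 0.213), Hba-a1 by 1.19 (SE 0.218) and Hbb-bs by 0.82 (SE 0.154). Their reads may be divided between near-identical copies, but the summed level of the list was 452 to 637 CPM in naive and 635 to 1368 CPM in knockout libraries, with hardly any overlap. All 4 calls held without any single library, without knockout library 1 and naive library 1 together and with the GC offset. The part that blood left in the tissue has in the rise of other genes was not tested. Genes of other blood cells were scarce in both groups. Of 19 lymphocyte genes 1 passed the filter and of 18 monocyte, neutrophil and border macrophage genes 2, none of them called by edgeR or DESeq2, without knockout library 1 and naive library 1 or with the GC offset, or at an unadjusted p under 0.05. The summed lymphocyte list was 11.6 to 29.1 CPM in naive and 14.1 to 24.5 CPM in knockout libraries. The summed monocyte list was 17.1 to 37.6 and 19.5 to 39.9 CPM. Summed over each group, Cd3e of T cells had 1 naive and 3 knockout counts, Cd4 11 and 21, Cd8a 4 and 0, S100a8 of neutrophils 17 and 17, S100a9 10 and 12, Ccr2 of monocytes 0 and 1 and Ly6c2 of monocytes 2 and 10. In these unscaled counts Ly6c2 and Cd4 were higher in the knockout group and Cd8a was lower, all at levels too low to be tested.

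Markers of other tissues that a dissection could carry along had calls in 2 of 10 choroid plexus, 2 of 23 endothelial and mural and 2 of 17 meningeal genes, beside 3.24% over all genes. The counts were 0, 2 and 1 without knockout library 1 and naive library 1, and with the GC offset 1, 0 and 0. In the choroid plexus list Ttr, the thyroid hormone carrier, was higher by 0.56 (adjusted p = 0.0247) and Prlr, the prolactin receptor, fell by 0.68 (adjusted p = 0.0328), and the summed list was 905 to 1529 CPM in naive and 1110 to 1674 CPM in knockout libraries. The Ttr call ended without knockout library 7 or naive library 1, 2 or 4 (highest adjusted p = 0.0597), and that of Prlr held in 6 of 14 fits that left out a library. Of 23 endothelial and mural genes 2 were higher, Slc2a1, the glucose transporter of the blood-brain barrier, by 0.41 (adjusted p = 0.0324) and Vtn, vitronectin of pericytes, by 0.52 (adjusted p = 0.0486). Neither kept its call with the GC offset, and they held in 7 and 4 of 14 fits that left out a library. The meningeal calls were Ptgds, given above, and Fmod, a matrix proteoglycan, higher by 0.84 (adjusted p = 0.0381), a call that held in 6 of those 14 fits. Hox genes, which mark hindbrain and spinal cord, summed to 247 counts in the naive and 77 in the knockout group. The part that tissue at the edge of the dissection has in other results was not tested.

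Markers of brain regions had a single call, Nnat of the hypothalamus list, which was higher by 0.48 (SE 0.107, adjusted p = 0.00764) without overlap and lost its call with the GC offset (adjusted p = 0.0826). None of 16 cerebellar, 12 striatal, 9 olfactory bulb and 4 ependymal genes was called by edgeR. At an unadjusted p under 0.05 there were 6, 3, 2 and 0, and DESeq2 called 1 of the olfactory bulb list and none of the others. That gene, Dcx of young neurons, named after its values were seen, was also lower without knockout library 1 and naive library 1 (−0.60, adjusted p = 0.0198), where Nnat kept its call. None of the region lists had a call by edgeR with the GC offset.

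Cuprizone binds copper, and 3 of 16 measured genes of copper handling and metallothioneins were higher, 3 also without knockout library 1 and naive library 1 and 2 with the GC offset. Mt2 and Mt1, metallothioneins that bind copper and zinc and respond to glucocorticoids, rose by 0.68 (SE 0.119, adjusted p = 0.000478) and 0.56 (SE 0.113, adjusted p = 0.00364). Mt2 was 268, 292 and 395 CPM in naive and 441, 482 and 590 CPM in knockout libraries, and Mt1 was likewise apart, at 393 to 501 and 590 to 719 CPM. Atox1, a copper chaperone, was higher by 0.56 (adjusted p = 0.0162) and lost its call with the GC offset (adjusted p = 0.256). Of 13 measured genes of the glucocorticoid response 2 were higher and 1 lower. The counts were the same without knockout library 1 and naive library 1, and 2 and 0 with the GC offset. The lower one, Sgk1, a kinase induced by glucocorticoids, fell by 0.69 (adjusted p = 0.0247). Its call held in 9 of 14 fits that left out a library and without knockout library 1 and naive library 1 together, and ended with the offset.

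Ribosomal protein genes were higher in 10 of 43 tested, with a median of 0.25 and 41 above 0. Rplp2 and Rpl10 rose by 0.60 (SE 0.0974, adjusted p = 0.000155) and 0.51 (SE 0.0882, adjusted p = 0.00039) with no overlap of ranges. The list's calls fell to 6 without knockout library 2, 3, 6 or 7 or naive library 1, rose to 17 without knockout library 1 and to 14 without it and naive library 1, and were 2 with the GC offset. Of 43 nuclear genes of oxidative phosphorylation 2 were higher, a share near the 3.24% called over all genes. They were Cox5b, by 0.32 (adjusted p = 0.0139), and Cox6b1, by 0.34 (adjusted p = 0.049), both subunits of cytochrome oxidase. Without knockout library 7 neither was called, and without knockout library 1 the list had 7 calls. There were 5 without knockout library 1 and naive library 1 and 2 with the GC offset. None of 13 mitochondrially encoded genes was called by edgeR with all libraries or with the GC offset, or by DESeq2, with 2 at an unadjusted p under 0.05 and a median of −0.08. Without knockout library 1 and naive library 1 the median was −0.29 and mt-Nd2 and mt-Nd6, subunits of complex I, were lower (−0.48 and −0.49, adjusted p = 0.032 and 0.0499). Leaving out knockout library 1 alone, or adding the replicate block, called mt-Nd2 only (adjusted p = 0.0274 in both). They were named after their values were seen.

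Of 26 synaptic vesicle genes 1 was higher and 1 lower, and of 30 axonal genes 1 was higher, beside 3.24% called over all genes. Slc17a6, the vesicular glutamate transporter of subcortical neurons, fell by 0.44 (SE 0.0976, adjusted p = 0.00725), while Rab3a, a synaptic vesicle GTPase, was higher by 0.36 (adjusted p = 0.0443) and the surface glycoprotein Thy1 by 0.40 (adjusted p = 0.0263). With the GC offset the adjusted p of these 3 were 0.0826, 0.304 and 0.269. Rab3a held in 6 and Thy1 in 10 of 14 fits that left out a library. The synaptic list had 2 higher and 1 lower without knockout library 1 and naive library 1 and the axonal list 2 and 2, and with the GC offset neither had a call. DESeq2 and the replicate block each called 3 axonal genes lower, Map2, Gap43 and Kcna2, by 0.26 to 0.36 on the log2 scale and named after their values were seen, and Thy1 higher. Of 20 neuropeptide precursors, 10 proliferation genes and 25 genes of the integrated stress response none was called by edgeR or DESeq2, without knockout library 1 and naive library 1 or with the GC offset. An unadjusted p under 0.05 was found in 3, 2 and 6 of them, beside 2344 of 12423 over all genes. With the replicate block 1 gene of the stress response was higher. In the clock list of 20, Dbp, an output gene, was higher by 0.68 (adjusted p = 0.00725) and Clock, a core activator, fell by 0.57 (adjusted p = 0.0113). Both kept their calls without knockout library 1 and naive library 1 and lost them with the GC offset (adjusted p = 0.079 and 0.0995).

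The largest falls outside the lists were mostly in genes of low level. B3gnt2 (ENSMUSG00000051650.12), a glycosyltransferase, was 0, 12.1 and 23.1 CPM in naive and 0, 0.558 and 3.13 CPM in knockout libraries, so that it fell by 3.11 (SE 0.775, adjusted p = 0.0195) with overlapping ranges. Its call ended with DESeq2 and without knockout library 7 (highest adjusted p = 0.0513). Cdh18, a cadherin, and Zfp711, a zinc finger gene, fell by 1.67 and 1.62, and Cdh18 held in 2 of 14 fits that left out a library, while Zfp711 lost its call without naive library 2 and with the GC offset. Gm43316 (ENSMUSG00000105332.2) was 22.2, 32.5 and 41.3 CPM in naive and 4.46, 13.3 and 15.5 CPM in knockout libraries. These ranges did not overlap, and the level fell by 1.42 (SE 0.227, adjusted p = 0.000144), which held in every fit made, with the GC offset included (−1.33).

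The other 7 of the 12 largest falls beside Idi1 were Gm38286, Gm37628, Gm43880, Slc10a7, Gm44559, Tbc1d31 and Gm44927, with log2 fold changes from −1.47 to −1.29 and overlapping ranges. They kept their calls in 4 to 12 of 14 fits that left out a library, with the highest adjusted p of each gene over those fits between 0.0617 and 0.139. Of all 85 genes named by rule and called against naive, 40 kept the call under every left-out library and every alternative that tested them. These were 36 of 63 higher and 4 of 22 lower genes. Not every alternative tested each of the higher ones, and Clec7a and Gpnmb, for example, were tested in 9 of 11. The lower ones were Hmgcs1, Sc5d, Anln and Gm43316.

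The knockout group was also tested directly against control remyelination. These groups differ in Cre as well as in the deletion, and whether TNFR1ff mice received tamoxifen is not given. A difference between them therefore cannot be assigned to the deletion alone. Of 12423 genes 6 were called (0.0483%), 5 higher in the knockout group and Cx3cr1 lower, and 930 had an unadjusted p under 0.05. Without knockout library 1 and naive library 1 there were 5, and DESeq2 called 11. None of the 403 genes called against naive brain was among them. Control remyelination had 78 calls of its own against naive brain (0.628%), and 63 of the 403 were also called there, but both comparisons use the same 7 naive libraries. Side by side, the rise over naive was 2.63 in knockout and 2.43 in control remyelination for Lyz2, 0.98 and 0.80 for Apoe, 2.03 and 2.05 for C4b, 1.59 and 1.33 for Gfap and 0.78 and 0.33 for B2m. The difference between knockout and control remyelination was 0.19 (adjusted p = 0.825) for Lyz2, 0.26 (adjusted p = 0.762) for Gfap and 0.45 (adjusted p = 0.13) for B2m. A p above the threshold does not show that the groups act alike.

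The 5 genes higher in knockout than in control remyelination are all induced quickly by activity or stress, and against naive brain none was called. Nr4a1 (ENSMUSG00000023034.8), an orphan nuclear receptor, was 56.8, 65.7 and 112 CPM in naive, 57.5, 79.4 and 91.2 CPM in knockout and 40.1 ± 8.14 CPM (mean ± SD, n = 7) in control remyelination libraries. It was 0.96 higher than in control remyelination (adjusted p = 0.00267) and 0.05 higher than in naive brain (adjusted p = 0.886). Fos (ENSMUSG00000021250.14), a transcription factor, was 35.9 ± 7.98 CPM in naive, 34.7 ± 9.52 in knockout and 14.5 ± 4.65 CPM in control remyelination libraries, 1.23 higher in the knockout group (adjusted p = 0.00855). Arc, a synaptic gene, and Dusp1, a phosphatase of MAP kinases, were 0.93 (adjusted p = 0.0041) and 0.89 (adjusted p = 0.00855) higher. Ddit4, an inhibitor of mTOR, was 0.71 higher (adjusted p = 0.026), a call that held in 7 of 14 fits that left out a library and ended with the GC offset (highest adjusted p = 0.0924).

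In the immediate early list of 29 genes none was called between knockout and naive brain by edgeR, 3 had an unadjusted p under 0.05, and Tiparp was called lower by DESeq2, with the replicate block and without knockout library 1 and naive library 1 (adjusted p = 0.0353, 0.0431 and 0.0339). EdgeR called none with the GC offset. The smallest p values were those of Tiparp, at 59.4 ± 5.96 CPM in naive and 44.0 ± 5.84 in knockout libraries (−0.44, adjusted p = 0.0579), and Dusp6, at 24.8 ± 2 and 34.6 ± 4.99 CPM (0.47, adjusted p = 0.093), both without overlap. Cx3cr1 (ENSMUSG00000052336.8), the gene whose locus carries the Cre, was 25.4, 29.8 and 42.8 CPM in naive and 10.4, 26.8 and 44.3 CPM in knockout libraries. The knockout values overlapped the naive ones and spread wider (log2 fold change −0.22, SE 0.191, adjusted p = 0.561). In control remyelination it was 48.9 ± 7.80 CPM, and the knockout value differed from it by −0.89 (adjusted p = 0.0365), a call that held in 5 of 14 fits that left out a library (highest adjusted p = 0.174), and with the 14 libraries of these groups fitted alone its adjusted p was 0.323. Csf1r, another microglial gene, differed between these groups by −0.09 (adjusted p = 0.906).

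**Figure D5:**
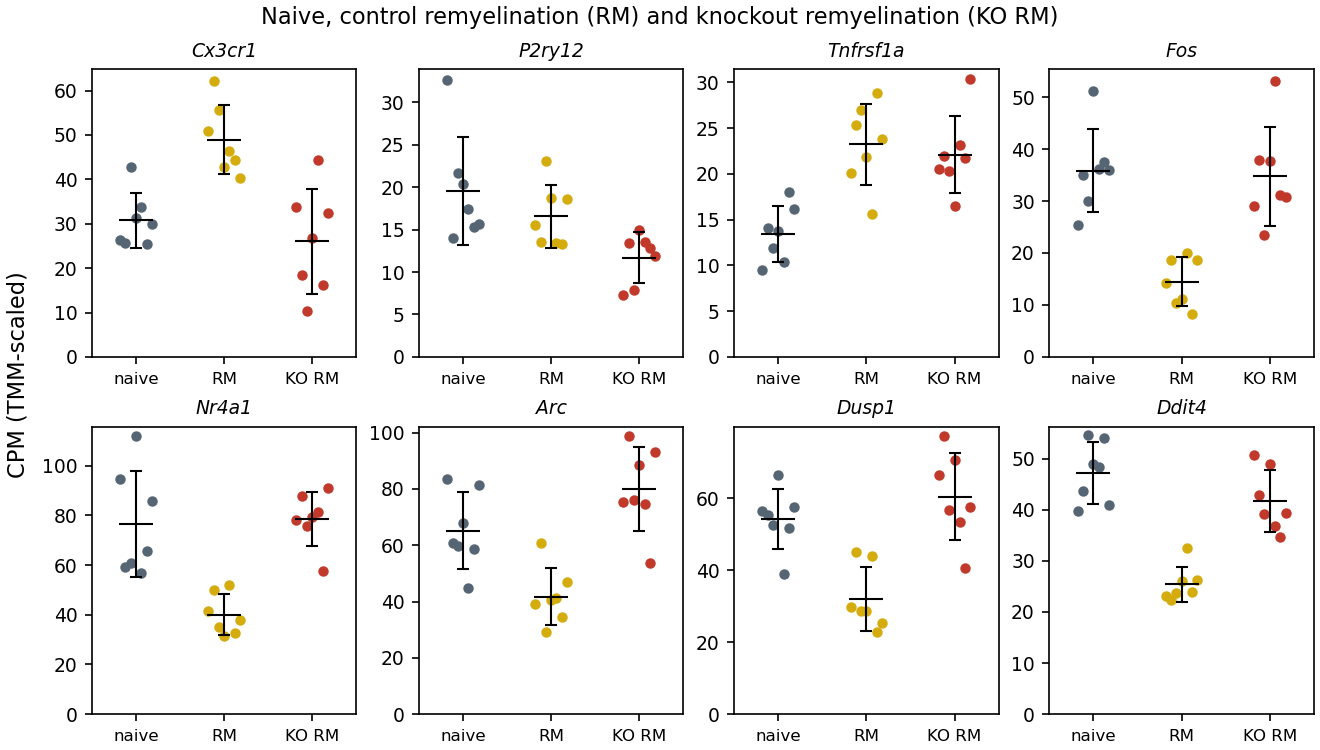
CPM (y axis, from 0) of 8 genes in each naive, control remyelination (RM) and knockout remyelination (KO RM) library, with 7 points per group and the mean ± SD as bars. Fos, Nr4a1, Arc, Dusp1 and Ddit4 are lower in control remyelination than in either other group, and Cx3cr1 in knockout libraries spreads from 10.4 to 44.3 CPM.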

How the data were processed

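Each of the 28 libraries was deposited by the authors as a table of gene results whose expected counts, estimates of reads per gene, are not normalised, per the file headers. Tools named in the submitters' processing notes are STAR, RSEM, cutadapt, FastQC and edgeR, with the build GRCm39, while the sources used here give no versions, strand setting or annotation. Expected counts were rounded to whole numbers. Symbols came from GENCODE M21 (GRCm38) by identifier and matched 52081 of 55414 genes. Unmatched genes held 10.76% of counts.

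Counts were scaled by TMM and filtered by filterByExpr (12423 genes left), then fitted in all 28 libraries with edgeR 4.0.16 (R 4.3.3), quasi-likelihood test, with a mean per group and Benjamini-Hochberg adjustment over all genes tested. A call is an adjusted p below 0.05. The common biological coefficient of variation was 19.5%. CPM values are TMM-scaled, SD is over 7 libraries and SE is that of the log2 fold change. In these libraries 3 counts, the floor used, are 1.00 to 1.97 CPM, and intervals and floors cover counting error only. No 2 libraries were alike enough to be duplicates. GC content was read from the transcripts of that annotation.

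The samples, lists and tests were chosen with earlier results of these data known. Named genes are Tnfrsf1a and Cx3cr1, the 12 largest called changes each way with a mean of at least 5 CPM, up to 4 called members per list by p (2 where none was called) and the genes called between knockout and control remyelination. Alternatives were DESeq2-type size factors, library totals, no filter, a stricter filter, DESeq2 1.42.0, the 14 libraries alone, a replicate block, covariates for the mitochondrial share and for the most abundant gene, and each library left out. A GC and gene span offset was added after seeing the data. Some genes of the lists are counted but not reported by name here.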

Additional observations from a re-analysis of the deposited data

Results flagged for a closer look

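In 22 of 244 sets of 7 values a single library lay far from the other 6, by Dixon's test at the 95% level, which chance alone does in about 1 in 20 sets. Of these, 6 were the highest or lowest value in knockout library 1: Clec7a at 18.72 CPM, Fcer1g at 38.05, Npc2 at 165.5, Irf9 at 27.78 and Cox6b1 at 369.6 CPM were high, and Csf1r at 50.13 CPM was low. In naive library 1 the share of the most abundant gene (25.54%), Itgax (1.591 CPM) and P2ry12 (32.61 CPM) were high, and Calr (97.83 CPM), Dusp6 (20.68 CPM), Mrc1 (0.7953 CPM) and the number of genes detected (15862) were low. Naive library 2 was high in C4b (20.37 CPM) and H2-K1 (30.55 CPM) and low in C1qb (4.85 CPM). Naive library 5 was high in both Gm45894 and Gm43118 (4.697 CPM each). Knockout library 3 was high in Gm37628 (9.914 CPM) and Hbb-bt (151.8 CPM) and low in Ttr (725.8 CPM), and knockout library 6 was low in Gm43316 (4.462 CPM).

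A test of the difference between the remyelination groups flagged 6 genes, with log2 fold changes, knockout against control, of 1.23 for Fos, 0.96 for Nr4a1, 0.93 for Arc, 0.89 for Dusp1, 0.71 for Ddit4 and −0.89 for Cx3cr1.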

How the results depend on the processing

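Deviations of knockout and naive libraries with the same number in their titles correlated only weakly, between −0.003 and 0.088. The best match was the library of the same number for 2 of them and another library for the rest. Whether libraries of the same number were handled together was not tested. With a replicate block 254 genes were higher and 354 lower, including 190 of the 191 and 208 of the 212. The lower count moved by over 1.5 times with the replicate block (354), with library totals (105) and without knockout library 1 and naive library 1 (364). Both counts did with the mitochondrial covariate (115 higher, 73 lower) and the GC offset (116 and 58). DESeq2 called 274 higher and 292 lower. Leaving out single libraries gave 87 to 332 higher and 59 to 404 lower. The genes called between knockout and control remyelination numbered 28 with no filter, 11 with DESeq2 and 4 to 8 without single libraries. Tnfrsf1a fell below the threshold with the mitochondrial covariate (0.61) and the GC offset (0.55), and ranged from 0.62 to 0.81 without single libraries. The cause of each of these shifts was not tested.

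Direction turned against naive brain only in genes that were not called. With the GC offset Foxj1 was −0.047, Mrc1 0.303, Pde10a 0.164, Nr4a1 −0.018 and Fos 0.058. Without single libraries Ighm ranged from −0.242 to 0.048, Mrc1 from −0.158 to 0.144, Nr4a1 from −0.006 to 0.176 and Fos from −0.176 to 0.063. Of the named calls, 47 of 91 ended under at least 1 setting. Depth limits the genes at or below 1 to 2 CPM, such as Clec7a (0 CPM) and Itgax (mean 0.297 CPM) in naive libraries.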

Other observations

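Hox genes, which set position along the hindbrain and spinal cord in development, were at different levels between libraries of 1 group. Summed over all Hox genes, naive libraries held 0 to 99 counts (median 29, 247 in the group), knockout libraries 2 to 26 (median 5, 77 in the group), control remyelination libraries 1 to 31 and demyelination libraries 4 to 75. Hoxa5 had 72 counts in the naive group, 10 in the knockout group, 7 in control remyelination and 67 in demyelination. How far spinal or hindbrain tissue at the edge of the dissection differed between libraries was not tested.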
